A study of Rattus norvegicus with 21 samples.

Results

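Oxidative phosphorylation genes were followed through single hippocampal neurons, with the nuclear genes and the rows of the mitochondrial chromosome kept apart. Nuclear members were all symbols that begin with Nduf, Sdha, Sdhb, Sdhc, Sdhd, Uqcr, Cox4, Cox5, Cox6, Cox7, Cox8 or Atp5, with the row of the highest mean kept where a symbol had several. This gave 90 of 16245 symbols, which are 77 subunits, 12 assembly or accessory factors and 1 pseudogene. The mitochondrial members are the 14 rows placed on chrM of the rat build rn6, so that 104 of 34976 rows entered in all. No row of chrM carries a gene name in the data, and they are called by position.

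The cells were 21 neurons of Wistar rats with a VGAT-Venus transgene, a fluorescent reporter driven by the vesicular GABA transporter. They were dissected at embryonic day 18, kept for 17 days in vitro, recorded with a patch electrode and drawn into it for sequencing of polyadenylated RNA. From cultures in which glia were left in place came 5 pyramidal and 6 GABAergic neurons. The other GABAergic neurons came from cultures purified with the antimitotic agents FdU and U at 5 µM, added 24 h after dissection and removed after 36 h. Of these, 5 received nothing more and 5 were given oligodendrocyte conditioned medium (OCM), made from cortical cultures of postnatal day 2 Wistar rats, from day 3 in vitro. Glia-containing cultures were not given these agents, so the loss of glia and the agents themselves cannot be told apart. Since no neuron is tied to an animal or a dish by the labels, each group counts as 1 sample. No p-value is given, and SDs and ranges show only how cells of a group differ.

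In the respiratory chain, complex I (NADH dehydrogenase) and complex II (succinate dehydrogenase) pass electrons to ubiquinone, complex III passes them to cytochrome c, and complex IV (cytochrome c oxidase) passes them to oxygen. The proton gradient that results drives complex V, the ATP synthase. Most subunits are encoded in the nucleus, whereas the mitochondrial genome supplies core subunits of complexes I, III, IV and V along with its own ribosomal and transfer RNAs. Neurons obtain most of their ATP from this pathway, and fast-spiking GABAergic neurons are known for a high demand.

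Depth ran from 1817671 to 25160911 reads per cell, and 2540 to 8652 rows were above 0. All groups expressed the neuronal markers. Gad1 and Slc32a1, which make and package GABA, were at 0 in the pyramidal cells. Slc17a7, a vesicular glutamate transporter, was at 0 in every GABAergic cell. The lists were not clear of the other type: 3 of 7 GABAergic markers were above 0 in pyramidal cells. Their sums there were at most 927 in a cell, against at least 21195.5 in GABAergic cells. Of 6 glutamatergic markers, 3 were above 0 in glia-cultured and 3 in OCM-treated GABAergic cells, with sums of at most 86.4 and 35.6. Glial markers together made up 3.26% of all values in pyramidal cell 3 and 1.47% in pyramidal cell 4, against at most 0.0440% in the other cells. In pyramidal cell 3 neuronal markers summed to 14672.5, the lowest of all cells, and glutamatergic ones to 1817. Oligodendrocyte lineage markers summed to 324915 in it, astrocyte markers to 64760 and microglial ones to 23414. In pyramidal cell 4 neuronal markers summed to 51854 and oligodendrocyte lineage markers to 103570. Titles begin with S, P or ech, which the labels do not explain. The letter S opened the titles of 4 of 5 purified cells and of every OCM-treated cell, while 3 of 6 glia-cultured GABAergic cells were titled P, 2 ech and 1 S. Pyramidal cells were titled S in 2 cases and P in 3.

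Subunits of the respiratory chain were among the most regularly detected transcripts. Of the 77 nuclear subunits, 40 were above 0 in all 21 cells (51.9%), against 248 of 16245 symbols (1.53%). Complex V led with 11 of 14 subunits in every cell, followed by complex IV with 11 of 17, complex III with 4 of 8 and complex I with 14 of 34. None of the 4 complex II subunits was above 0 in every cell. The same held for the 12 assembly factors, which help to build the complexes and were above 0 in a median of 9 cells. The symbols at 0 throughout were Cox4i2, Cox6b2, Cox8c and the pseudogene Cox6c-ps1, where a count of 0 allows up to 3 reads in a cell. In a single cell, fewer transcripts and transcripts that were not captured cannot be told apart.

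**Figure D1:**
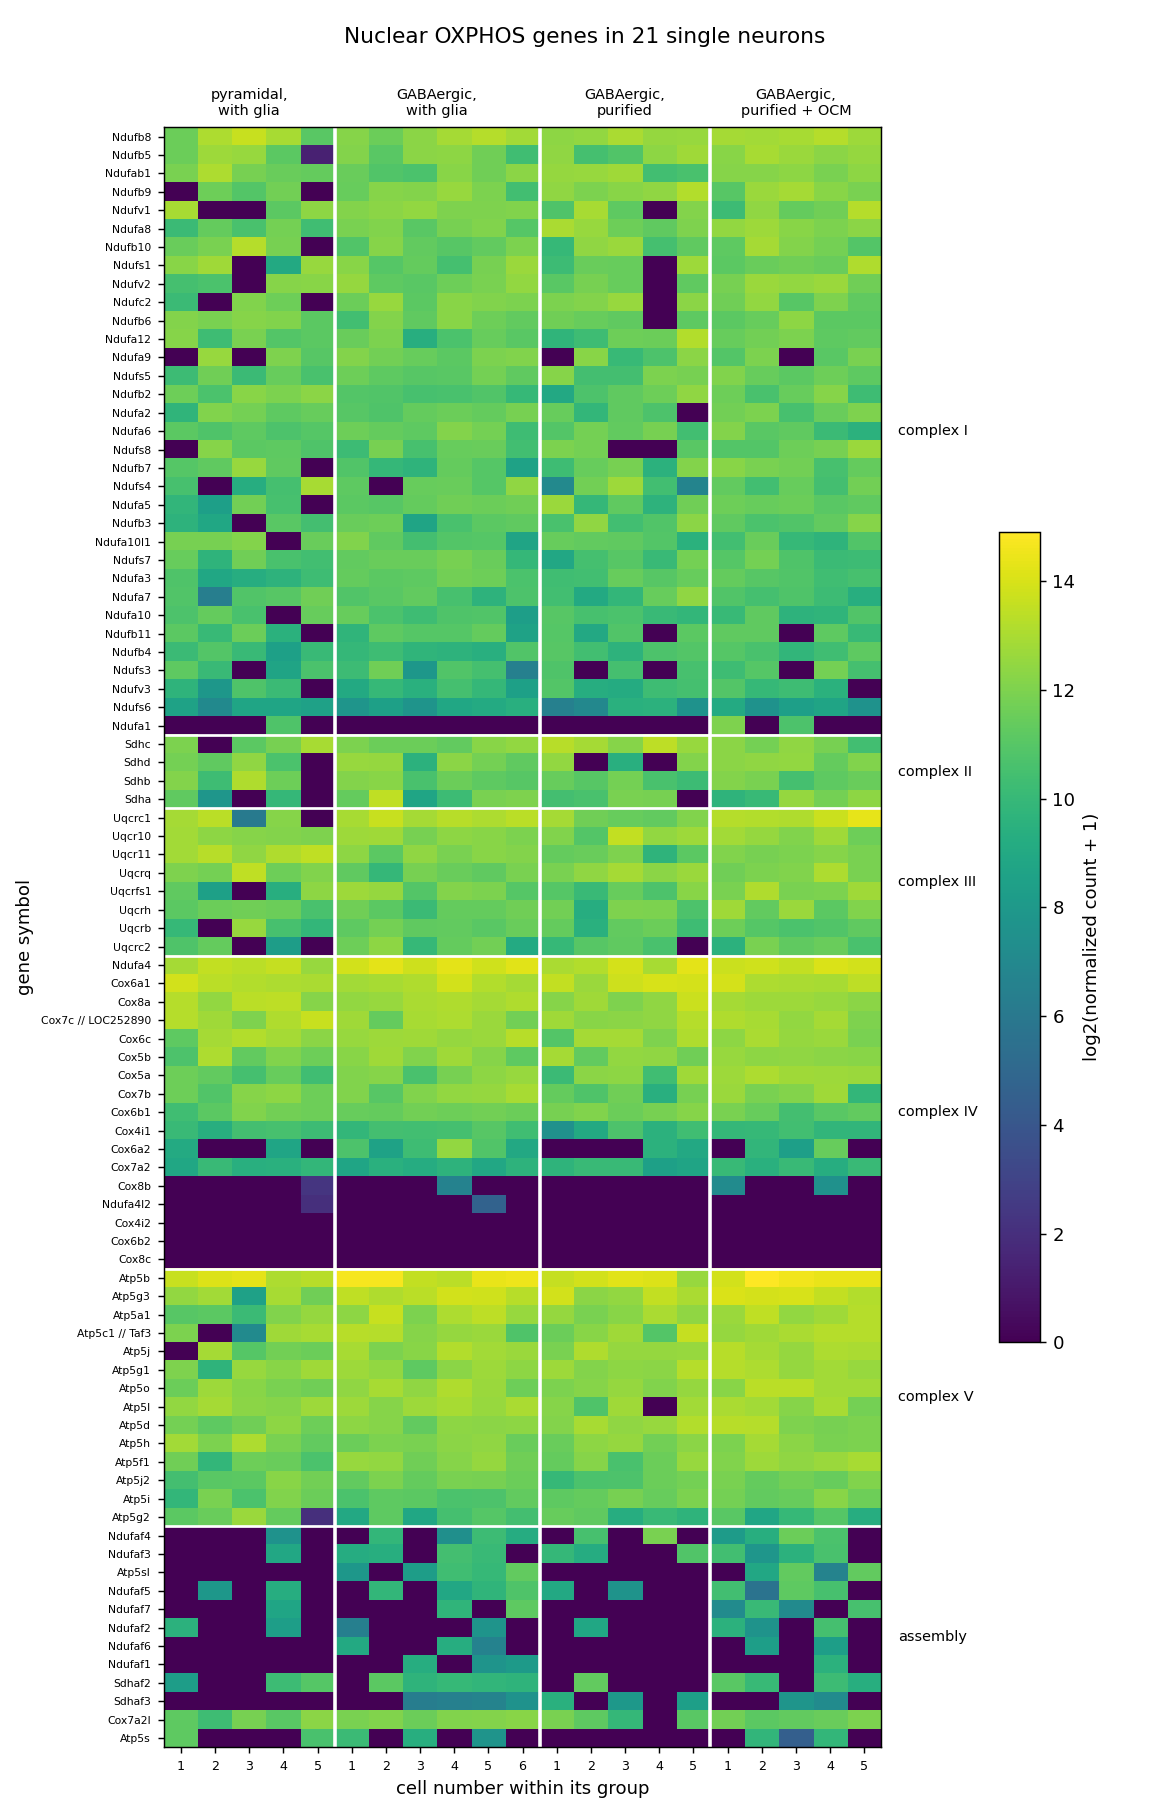
Heat map of 88 nuclear members that are not pseudogenes, as log2(normalized count + 1), with 1 row per gene ordered by complex and by mean, and 1 column per cell. Subunits of complex V are above 0 almost throughout, assembly factors are at 0 (darkest) in many cells, and gaps among complex I subunits are most frequent in pyramidal cells and in purified cell 4.

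Promoters were compared because most nuclear members share broad detection. RefSeq (GRCr8) gave a window of 250 bases before and 50 after the start of transcription for 77 of the 90 nuclear members. GCGCATGCG, a form of the site of NRF1, a regulator of respiratory genes, was in 9.09% of the members' windows and in 2.03% of all 19005 windows of protein-coding genes. AAGATGGCG, a form of the YY1 site, was in 13% against 2.29%, and CCGGAAG, a core of ETS family sites such as that of GABPA, in 28.6% against 11.2%. GGGCGG, a core SP1 site, was about as frequent in members (45.5%) as in all windows (43.1%), and TATAAA was less frequent (7.79% against 13.1%). Both strands were searched, and the motifs were chosen after the Uqcrc1 and Cox6a2 windows had been seen, so these shares are descriptions. The median ratio of observed to expected CpG was 0.806 in members and 0.549 in all windows, at a similar GC content of 56.3% and 55.3%. The windows of 3 genes that recur below are shown 5′ to 3′ on the gene's strand. They belong to Uqcrc1, to Cox5a and to Cox6a2, the last being the form known from heart and skeletal muscle. Uqcrc1 and Cox5a were each the 1 member without overlap in a comparison below. They were 1 of 81 and 1 of 84 members measured, beside 1.05% and 0.694% of all symbols. These shares are close, so the lack of overlap does not set the 2 genes apart from other symbols. Capitals mark an NRF1 and then a YY1 match in Uqcrc1 (GRCr8 chr8:118467973-118468272, plus strand), SP1 matches on the opposite strand in Cox5a (GRCr8 chr8:66818034-66818333, plus strand), and TAAAAATAG, a form of the site of the muscle regulator MEF2, in Cox6a2 (GRCr8 chr1:192219667-192219966, minus strand). No match overlaps another in these windows.
Uqcrc1: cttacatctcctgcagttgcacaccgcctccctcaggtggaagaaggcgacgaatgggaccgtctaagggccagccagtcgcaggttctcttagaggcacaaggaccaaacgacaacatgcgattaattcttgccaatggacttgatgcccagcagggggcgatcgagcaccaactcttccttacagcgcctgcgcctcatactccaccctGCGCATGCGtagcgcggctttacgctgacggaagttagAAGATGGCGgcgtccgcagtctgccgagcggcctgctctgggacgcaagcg
Cox5a: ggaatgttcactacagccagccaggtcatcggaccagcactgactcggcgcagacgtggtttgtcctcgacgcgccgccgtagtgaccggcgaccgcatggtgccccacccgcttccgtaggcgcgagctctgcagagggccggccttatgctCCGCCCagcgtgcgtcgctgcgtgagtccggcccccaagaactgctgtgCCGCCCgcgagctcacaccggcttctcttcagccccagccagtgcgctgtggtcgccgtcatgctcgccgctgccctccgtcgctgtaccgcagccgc
Cox6a2: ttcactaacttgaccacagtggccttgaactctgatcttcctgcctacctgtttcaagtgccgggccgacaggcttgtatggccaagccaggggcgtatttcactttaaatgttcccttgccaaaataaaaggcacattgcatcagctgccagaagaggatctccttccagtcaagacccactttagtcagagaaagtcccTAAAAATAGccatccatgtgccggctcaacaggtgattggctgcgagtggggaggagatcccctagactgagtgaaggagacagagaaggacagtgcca
TAAAAATAG was in 1 of the 77 member windows, that of Cox6a2, and in 0.379% of all windows. The CpG ratio of that window was 0.260, against 0.911 in Uqcrc1.

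Nuclear members took up 2.12% to 5.70% of all values in a cell. In the 5 pyramidal cells the shares were 2.79%, 2.38%, 2.12%, 3.59% and 2.70%, with a mean of 2.72% ± 0.558 (SD, n = 5 cells). The 6 GABAergic cells cultured with glia had a lowest share of 2.82%, a median of 3.93% and a highest of 4.47%, with a mean of 3.88% ± 0.595. Pyramidal neurons were thus the low group, and 5 of the 6 GABAergic cells lay above all pyramidal cells. The purified cells had 3.93%, 2.96%, 4.39%, 3.43% and 4.62%, with a mean of 3.86% ± 0.680. The OCM-treated cells had 5.49%, 5.70%, 5.03%, 5.10% and 3.70%, with a mean of 5.00% ± 0.781. OCM-treated cells were the high group: 4 of 5 lay above every other cell, and the fifth lay within the range of the purified and glia-cultured cells. Purified and glia-cultured GABAergic cells overlapped nearly completely. The 95% Wilson interval of a share was at most 0.0257 percentage points to either side. It takes each read as an independent draw and covers counting error only, not that of capture or amplification. Differences between cells far exceeded this interval, and whether they exceed all technical error was not tested.

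The rows of chrM varied much more than the nuclear genes, by 16.7-fold between the lowest and highest cell against 2.70-fold. Pyramidal cells had 2.36%, 20.9%, 9.70%, 5.13% and 1.87% of all values on chrM, with a mean of 7.99% ± 7.86. The highest of these, pyramidal cell 2, also had the fewest reads. Glia-cultured GABAergic cells ranged from 1.25% over a median of 3.44% to 10.8%, with a mean of 4.54% ± 3.52. Purified cells had 8.50%, 7.37%, 8.42%, 2.89% and 5.85%, with a mean of 6.61% ± 2.34. OCM-treated cells had 5.52%, 7.95%, 3.94%, 1.77% and 3.91%, with a mean of 4.62% ± 2.29. All 4 groups overlapped in this share, and no order of the group means stood beyond the spread of the cells.

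**Figure D2:**
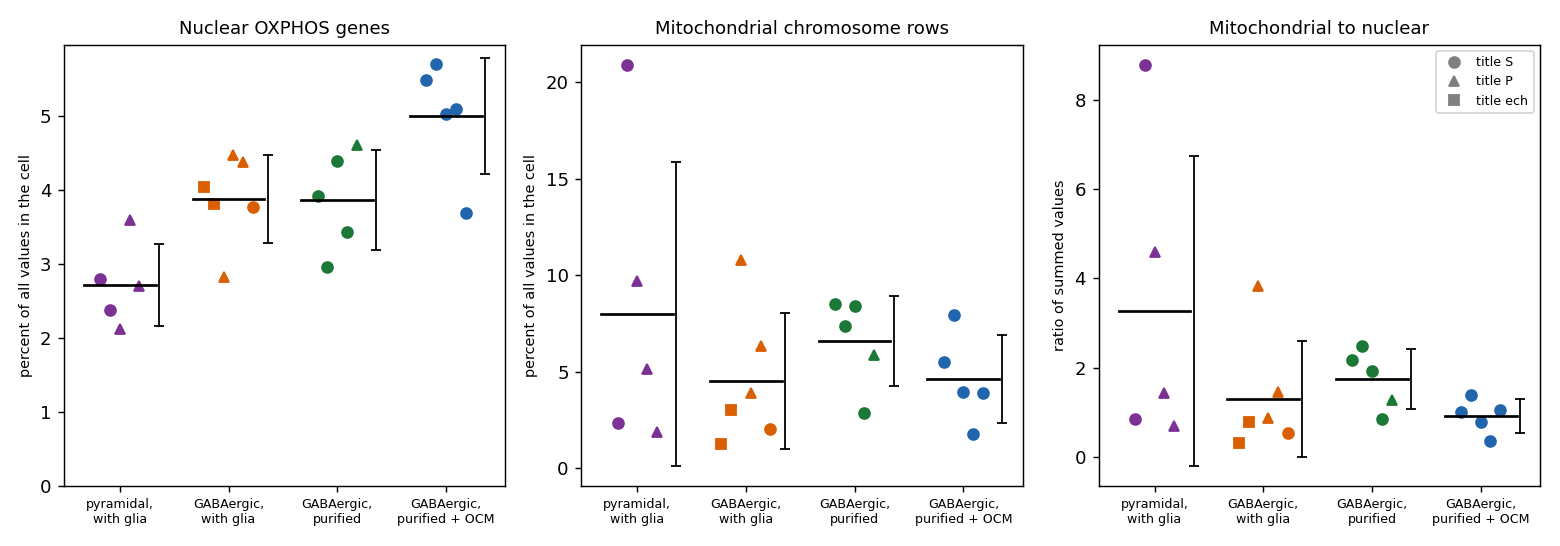
Share of all values in nuclear members (left) and in chrM rows (middle), in percent, and the ratio of the sums (right), with 1 point per cell, the group mean as a line and its SD as a bar. Marker shapes give the letters that open the sample titles. OCM-treated cells hold the 4 highest nuclear shares, at 5.03% and above, and pyramidal cell 2 holds the highest chrM share at 20.9%.

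The ratio of chrM to nuclear values set both parts side by side within each cell. It was 0.846, 8.78, 4.59, 1.43 and 0.692 in pyramidal cells. In glia-cultured GABAergic cells its lowest value was 0.309, its median 0.827 and its highest 3.82. In purified cells it was 2.17, 2.49, 1.92, 0.842 and 1.27, while OCM-treated cells gave 1.01, 1.39, 0.783, 0.348 and 1.06. Above every OCM-treated cell lay 3 purified ones, and the other two lay within the OCM-treated range. The difference of the mean log2 ratio, OCM-treated minus purified, was -0.96, and leaving out single cells gave -1.19 to -0.64. Among all 21 cells the log2 nuclear and chrM shares were nearly unrelated (r = -0.23, rho = -0.14; r = -0.06 without pyramidal cell 2). These shares have 1 total per cell in common, and the coefficients are descriptions.

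**Figure D3:**
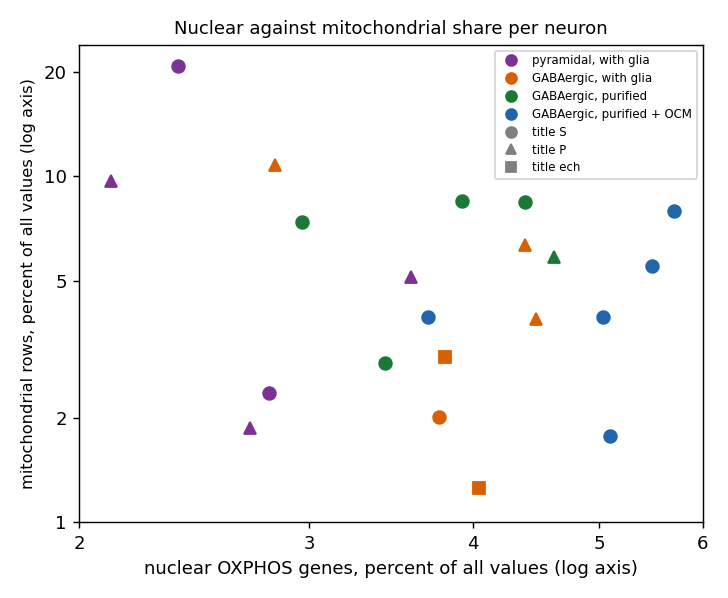
Nuclear share against chrM share, both in percent of all values on log axes, with 1 point per neuron, coloured by group and shaped by title letter. The points show no common slope (r = -0.23 over 21 cells), and cells with like nuclear shares differ several-fold in chrM share.

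Of the summed subunit values, complex I made up 30.1% to 33.1% in the group means, complex V 26.1% to 32.2%, complex IV 19.6% to 24.0%, complex III at most 12.8% and complex II 4.30% to 5.49%. The proportion of complex V was 23.9% to 28.7% in pyramidal and 31.0% to 34.9% in OCM-treated cells, without overlap. That pair is not among the comparisons below. It differs in cell type, glia, antimitotic agents and OCM, which cannot be told apart. As shares of all values, all 5 complexes had their highest group mean in OCM-treated cells. Complex I was at 1.63%, 1.78%, 1.56%, 1.48% and 1.18% in these cells, of which 4 lay above all glia-cultured and 3 above all purified cells. Complex III was at 0.623%, 0.607%, 0.543%, 0.658% and 0.526% in the OCM-treated cells, with a mean of 0.591% ± 0.056. All 5 lay above the 6 glia-cultured GABAergic cells, which reached 0.492%, and 3 of 5 lay above all purified cells, whose shares were 0.414%, 0.213%, 0.574%, 0.353% and 0.377%. Complex V was at 1.65%, 1.95%, 1.57%, 1.55% and 1.12% in OCM-treated cells against 1.08%, 0.863%, 1.19%, 1.08% and 1.24% in purified cells, and 4 of 5 lay above all purified and all glia-cultured cells. In pyramidal cells, complexes III and V were lower than in 5 of the 6 glia-cultured GABAergic cells. Complex IV overlapped broadly between OCM-treated cells (mean 0.961% ± 0.217) and purified cells (0.862% ± 0.245).

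The following values are normalized counts per cell. Differences are those of group means of log2(count + 1), computed for genes above 0 in at least 3 cells of the pair, and at least 2-fold means a difference of 1 or more. A gene at 0 in a cell pulls such a difference far from that of the plain means, and plain means are given beside the main cases of this kind. The comparisons share groups and are not independent. Without gene lengths of rn6, levels are compared between cells and not between nuclear genes.

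The first comparison set pyramidal against GABAergic neurons from cultures with glia. Of 83 members measured, 42 were at least 2-fold lower and 2 at least 2-fold higher in pyramidal cells. Among all 6571 symbols measured, 64.2% were at least 2-fold lower and 13.3% higher. The members' median was -1.02 and that of all symbols -2.05, and pyramidal cells also had fewer rows above 0 (2540 to 5325 against 3760 to 8652). For the 44 members above 0 in every cell of both groups, the median was -0.32, beside -0.02 for all 358 such symbols.

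By differences of log2(count + 1), all 4 subunits of complex II were at least 2-fold lower (median -2.36), 19 of 33 in complex I (median -1.47), 4 of 8 in complex III (median -1.38), 5 of 14 in complex V (median -0.48) and 1 of 12 in complex IV (median -0.29). Among all symbols 64.2% were at least 2-fold lower (median -2.05), a share that only complex II exceeded. The order of the complexes was not that of the summed shares, and the part of cells at 0 in it was not tested. The summed shares had log2 ratios of -0.73 for complex V, -0.72 for complex II and -0.43 for complex IV. For complexes I and III they were -0.39 and -0.34. In complex II, Sdhb, the iron-sulfur subunit, and Sdhc were each at 0 in 1 pyramidal cell. Their differences were -2.05 and -2.27, while the plain means were 3523 and 3080.4 for Sdhb and 3596 and 3858 for Sdhc. Sdha, the catalytic subunit of complex II, was at 2407, 230.0, 0, 957 and 0 in pyramidal cells. In GABAergic cells it ranged from 426 over a median of 3189 to 11381. The groups overlapped, and the difference was -5.48 (means 719 and 3908). Ndufc2, a complex I subunit, was at 1136, 0, 4234, 3133 and 0 in pyramidal cells and above 0 in all GABAergic cells, with a difference of -5.15 (means 1700.4 and 4070.2).

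Without overlap between the groups, at any size of difference, were 3 members, beside 2.08% of all symbols. Ndufa4, a small protein now counted with complex IV (rn6 chr4:38233680-38240848), was at 7633, 12008, 10289, 12433 and 6209 in pyramidal cells. It ranged from 14033 to 19989 in the GABAergic cells (median 17000.2), all above the pyramidal ones, with a difference of -0.85. Atp5g3, which encodes a proton-carrying c subunit of the ATP synthase (rn6 chr3:60811225-60813847), was at 5761, 7389.8, 364, 7930.4 and 3225 in pyramidal cells. It ranged from 9014 to 15222 (median 10803) in GABAergic cells, and the difference was -1.80. Uqcr11, a small complex III subunit, went the other way, at 7137, 10174, 5568, 8906 and 11240.5 in pyramidal cells. Its range was 2228 to 5419 (median 4705) in GABAergic cells, and the difference of 0.99 fell just short of 2-fold. The 2 members at least 2-fold higher in pyramidal cells were Ndufb2, a complex I subunit with means of 3734 and 1617, and Ndufaf2, an assembly factor above 0 in 2 of 5 and 2 of 6 cells. Uqcrc1 showed how far detection weighs: 2 pyramidal cells at 0 and 70.4 gave a difference of -4.27 where the plain means were 4559.9 and 9504.

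Pyramidal cells 3 and 4 carry glial transcripts, and their part in these values was not tested. Without them, 41 of 82 members were at least 2-fold lower and 3 higher, and the nuclear share differed by a log2 ratio of -0.57 beside -0.52 with all cells.

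The next comparison set purified against glia-cultured GABAergic neurons. Nuclear shares did not separate (log2 ratio -0.01, with values from -0.08 to 0.07 on leaving out 1 cell), but fewer members were detected. Of the 90, purified cells had 73, 73, 72, 62 and 71 above 0, all below the 75 to 83 of glia-cultured cells. Reads per cell ran lower in purified cells (2442814 to 7821375 against 5587208 to 25160911), and after every cell was thinned to 1817671 reads the counts of members were the same in these groups. Rows above 0 moved with them (2573 to 4065 against 3760 to 8652).

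Of 82 members measured, 26 were at least 2-fold lower and 2 higher in purified cells. The shares among all 6302 symbols were 64.4% lower and 11% higher. No member was free of overlap, beside 1.67% of all symbols. The median of the members was -0.41, against -2.13 for all symbols. Assembly factors lay lowest among the members (8 of 11 at least 2-fold lower, median -3.24), a share not far from the 64.4% of all symbols. They included Sdhaf2 at -6.14 (means 499.9 and 978) and Atp5s at -4.53 (means 0 and 330.1). Complex I had a median of -0.09 and complex V of -0.25.

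Sdhc and Uqcrq were at least 2-fold higher in purified cells. Sdhc, a membrane anchor of complex II, was at 10141, 7515, 4663, 11017 and 6302 in purified cells and between 2593 and 5794 (median 3497) in glia-cultured cells. Only purified cell 3 fell within the range of the glia-cultured cells, and the difference was 1.03. Sdhd, the other membrane anchor of the same complex, was at 5812, 0, 663, 0 and 4453 in purified cells and between 766 and 6103 (median 4269.8) in glia-cultured cells. Its difference was -4.87 (means 2186 and 3952), so the anchors of complex II pointed in opposite directions. Uqcrq, a small complex III subunit, had means of 5652 ± 1455 (n = 5) in purified and 2707 ± 1046 (n = 6) in glia-cultured cells, with 1 purified cell inside the other group's range.

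Cox6a2 and Atp5sl were lowest in purified cells relative to glia-cultured ones. Cox6a2 (rn6 chr1:199624037-199624783) encodes the heart and muscle form of a complex IV subunit, and Cox6a1 the form found in most tissues. Cox6a2 was above 0 in all 6 glia-cultured GABAergic cells, from 378 over a median of 1453 to 5786. In purified cells it was at 0, 0, 0, 752 and 506, in OCM-treated cells at 0, 892, 339, 2746 and 0, and in pyramidal cells at 552, 0, 0, 423 and 0. Glia-cultured GABAergic cells were the only group in which no cell was at 0, although their 2 lowest values lay within the ranges of pyramidal and purified cells, and all but the highest lay below the top OCM-treated cell. Cox6a1 was above 0 in all 21 cells, with means of 10297, 9373, 12908 and 10195 in pyramidal, glia-cultured, purified and OCM-treated cells. Its groups overlapped. Atp5sl, named after an ATP synthase subunit but known as a complex I assembly factor, was at 0 in all pyramidal and all purified cells. It was at 235, 0, 316, 1291, 1019 and 2602 in glia-cultured GABAergic cells and at 0, 493, 2580.4, 99.8 and 2529.5 in OCM-treated cells.

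**Figure D4:**
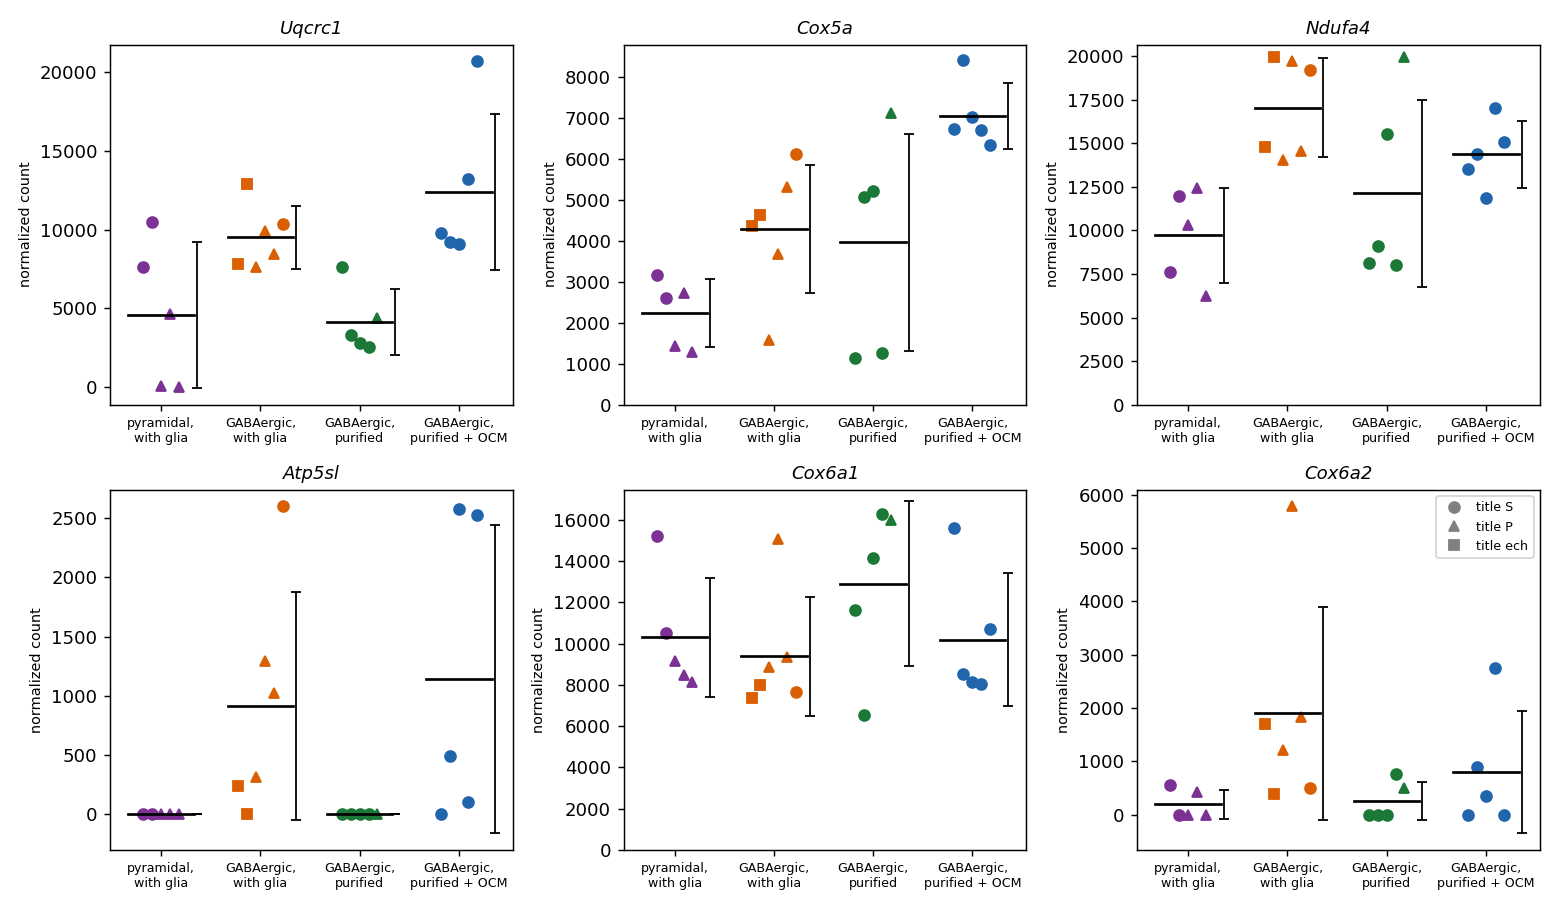
Normalized counts of 6 members by group, with 1 point per cell, the group mean as a line, its SD as a bar and title letters as marker shapes. Uqcrc1 lies above all purified cells in the 5 OCM-treated cells, Cox5a lies above all glia-cultured cells in them, and Atp5sl is at 0 in all pyramidal and purified cells.

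OCM-treated cells were then compared with untreated purified cells. The nuclear share was 1.29-fold higher in the mean, and 4 of 5 treated cells lay above all purified cells. As a share of the values outside chrM it was 5.26% in treated and 4.14% in purified cells, so the order was the same with chrM set aside. Cytosolic ribosomal protein genes, a like large set of housekeeping transcripts, had a mean share of 0.823% in treated and 0.903% in purified cells. Of 81 members measured, 27 were at least 2-fold higher and 3 lower in treated cells, and 66 had a difference above 0. The shares among all 5143 symbols were 56.0% higher and 16.4% lower, and 3600 of them had a difference above 0. The members' median of 0.42 lay below the 1.40 of all symbols. For the 55 members above 0 in every cell of both groups the median was 0.32, and 42 had a difference above 0, beside a median of 0.06 and 302 of 563 for all such symbols. Treated cells had 73 to 83 members above 0, and 3992 to 6331 rows against 2573 to 4065 in purified cells. The part of detection in the member counts was not tested.

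Uqcrc1 (rn6 chr8:117679305-117691071), a core protein of complex III whose promoter window is shown above, was the 1 member without overlap, beside 1.05% of all symbols. It was at 7656, 3296, 2774, 2554 and 4369.6 in purified cells and at 9792, 9218, 9066, 13204 and 20700.0 in OCM-treated cells. All treated cells were above all purified ones, by a difference of 1.63, and the treated cells overlapped the glia-cultured ones (7616 to 12887, median 9177). Other complex III subunits differed less evenly. Uqcrfs1, the Rieske iron-sulfur protein, was at 1996, 1092, 2807, 1720.0 and 4858 in purified and at 3876, 9052, 3754, 4038 and 6886 in treated cells, a difference of 1.23 with 1 purified cell inside the treated range. Uqcrc2, the second core protein, differed by 2.38 with 1 purified cell at 0 (means 2290.3 and 1428), and Uqcr10, a small subunit, by 0.03.

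Among the ATP synthase genes, Atp5b, the catalytic beta subunit, was at 12187, 15268, 19182, 17690.2 and 6298 in purified cells and at 14831, 30477, 24178, 21779 and 21657 in treated cells. Of the treated cells 4 lay above all purified cells, and the difference was 0.74. Of 14 complex V subunits 12 had a difference above 0, with a median of 0.58, and 1, Atp5l, was at least 2-fold higher. That value rests on purified cell 4, the only cell in which Atp5l was at 0 (means 6352 and 4092). In complex IV, 10 of 12 were above 0 with a median of 0.28, and Cox5a and Cox6a2 passed 2-fold. Ndufb8 and Ndufb5, the most read complex I subunits, had means of 7852 ± 1061 and 6089.6 ± 1262 in treated cells and 6237 ± 1175 and 4222 ± 2449 in purified cells (n = 5 each), with differences of 0.34 and 0.76. In complex I, 25 of 33 were above 0 with a median of 0.34, 10 were at least 2-fold higher and 1, Ndufv3, at least 2-fold lower (means 969 and 1161, with 1 treated cell at 0). These counts above 0 stand beside the 3600 of 5143 given for all symbols, and that of complex I is near it.

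Complex II split here too, in a comparison that uses the same purified cells as the one before. Between OCM-treated and glia-cultured cells, Sdhc differed by -0.11 and Sdhd by 0.45. Sdhc was at 5000.1, 3593, 5505, 3619 and 1328 in treated cells, with every treated cell below 4 of the 5 purified cells and a difference of -1.14. Sdhd was at 4974, 5386, 5643, 2659.6 and 4321 in treated cells, a difference of 5.32 set mainly by the purified cells at 0 (means 4597 and 2186). Assembly factors showed the widest differences, with 9 of 10 measured at least 2-fold higher and a median of 4.01. For all symbols the share was 56.0% and the median 1.40. Cells at 0 weigh on these differences: Ndufaf4 differed by 3.46 where the plain means were 1119 and 1056. Purified cells had 4, 5, 3, 1 and 3 of the 12 assembly factors above 0 and treated cells 7, 10, 8, 11 and 4. Atp5sl, at 0 in all purified cells, was above 0 in 4 of 5 treated cells. Ndufaf7, an assembly factor of complex I, was likewise at 0 in all purified cells and at 143, 1114, 139, 0 and 1521 in treated ones. Sdhaf2, an assembly factor of complex II, was at 0, 2499.5, 0, 0 and 0 in purified and at 2187, 1044, 0, 1167 and 649.8 in treated cells, and its difference was 5.87 (means 1009.7 and 499.9). Atp5s, a factor linked to the ATP synthase by name, was at 0 in all purified cells and at 0, 891, 22.0, 914.5 and 0 in treated cells. Sdhaf3, also an assembly factor of complex II, was lower, with a difference of -2.16 (means 73.2 and 256).

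**Figure D5:**
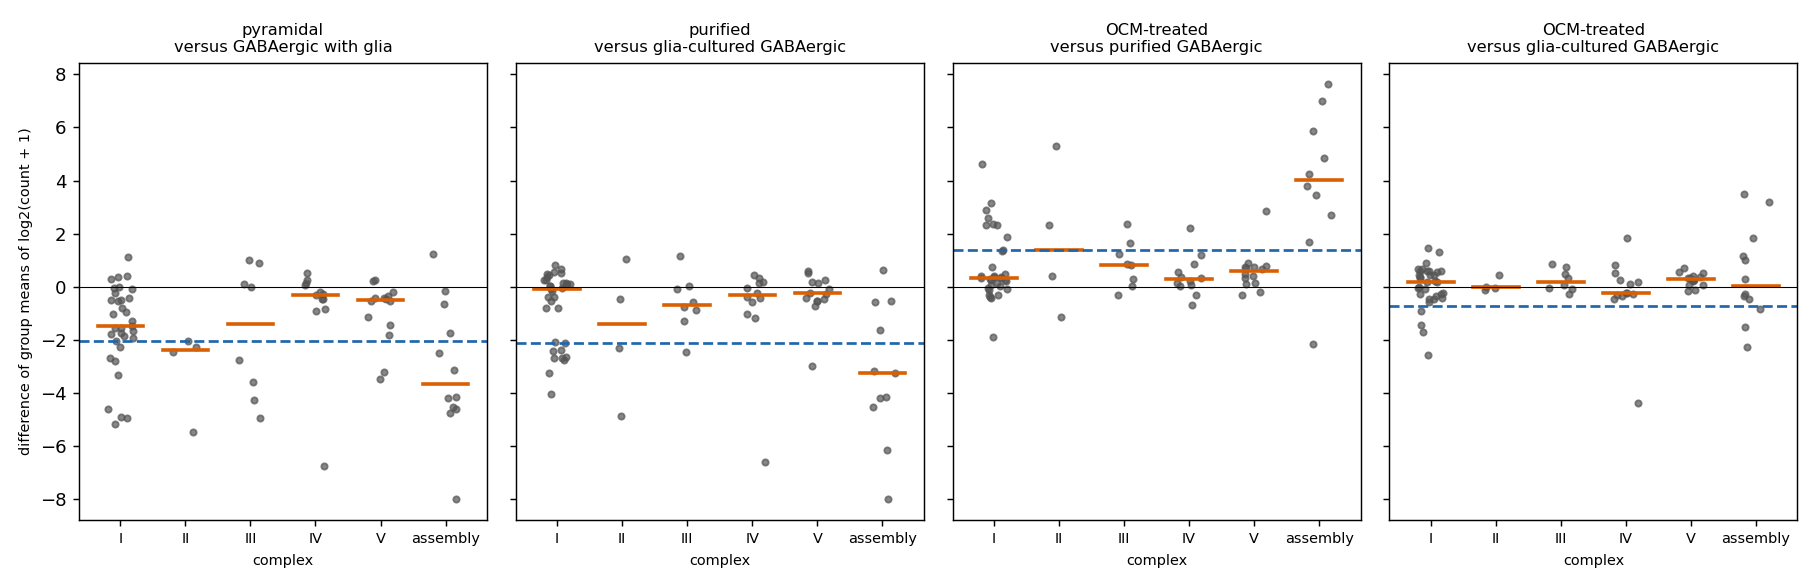
Differences of group means of log2(count + 1) for the nuclear subunits by complex and for assembly factors, with 1 point per gene and spread sideways for sight only, in the 4 comparisons. Orange bars are list medians and dashed lines the median of all symbols measured. The medians of complexes I, III, IV and V lie nearer to 0 than that of all symbols in each panel. Those of complex II and of the assembly factors do not in every panel.

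Last, OCM-treated cells were compared with glia-cultured GABAergic cells. The nuclear share was 1.29-fold higher in the mean and 4 of 5 treated cells lay above all glia-cultured cells, whereas the numbers of members above 0 were alike (means 78.6 and 78.7). The cytosolic ribosomal protein share was 1.46-fold higher in the same pair, also with 4 of 5 treated cells above all glia-cultured cells. Of 84 members measured, 7 were at least 2-fold higher and 6 lower. The shares among all 6772 symbols were 20.3% higher and 44.4% lower, and the medians were 0.18 for members and -0.72 for all symbols. Members above 0 in every cell of both groups numbered 66, with a median of 0.21 beside -0.17 for all 939 such symbols. Cox5a (rn6 chr8:62298298-62309775), a nuclear subunit of complex IV that carries no metal centre, was the 1 member without overlap, beside 0.694% of all symbols. It was at 6733, 8431, 7015, 6720.1 and 6332 in OCM-treated cells and ranged from 1574 over a median of 4495 to 6122 in glia-cultured ones. The gap between the groups was narrow, and the difference of 0.83 did not reach 2-fold. Cox5a in purified cells, at 1146, 5082, 5209, 1261 and 7115, was below all treated cells in 4 cells and within their range in 1. Cox6a2 was the lowest member relative to glia-cultured cells, at -4.38 (means 795 and 1899.9), and Ndufaf7 the highest, at 3.51, with plain means of 583 and 540.3 and 4 glia-cultured cells at 0. Next among the higher ones came Ndufaf2 (3.21), Cox8b (1.84) and Ndufaf4 (1.82), each at 0 in at least 1 cell of both groups. Ndufs4, a complex I subunit, had a difference of 1.48 set by glia-cultured cell 2 at 0, while its plain mean was lower in OCM-treated cells (2295 against 2591). Among the lower ones, Ndufa9 (-2.58) and Ndufb11 (-1.72), both complex I subunits, were at 0 in OCM-treated cell 3 and above 0 in every other cell of this pair. Their plain means were 2356 and 3508 for Ndufa9 and 1659 and 1705 for Ndufb11, while the assembly factors Ndufaf1 (-2.27) and Sdhaf3 (-1.52) were at 0 in several cells.

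The forms of complex IV subunits and of the c subunit were followed through all groups. Cox4i1, the ubiquitous form of a complex IV core-associated subunit, had means of 1160.2, 1421, 885 and 1025 in pyramidal, glia-cultured, purified and OCM-treated cells, and its counterpart Cox4i2 was at 0. Its difference between purified and glia-cultured cells, -1.0, was the largest of the 4 comparisons. Cox8a was at 8255, 7564, 6958 and 6463, Cox8b was above 0 in 4 of 21 cells, and Cox7a2 was at 771, 629.8, 750.3 and 909. In plain means over the same groups, the genes for identical c subunits of the ATP synthase went different ways. Atp5g1 was at 4600.5, 5322, 6226 and 7584, Atp5g2 at 2822, 1370.4, 1539.7 and 1255, and Atp5g3 at 4934, 11727, 9149 and 13977. By differences of log2(count + 1), each was lower in pyramidal than in glia-cultured GABAergic cells (-0.43, -0.44 and -1.80). Atp5g2 ran from 3.10 to 6349 in pyramidal cells, and its groups overlapped. Ndufa1, a complex I subunit on the X chromosome, was at 0 in all cells but 3.

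Per kilobase, rows of chrM differed widely from each other. Averaged over cells, the short row at chrM:1342-1448 stood highest at 82709 normalized counts per kb. It was followed by chrM:5323-8066 at 68540.3 and chrM:1104-3694 at 53862, while chrM:5009-12066 stood at 63.0. Of the 14 rows 13 overlap another, so a read could be shared, split or lost between them, and ribosomal and messenger RNA cannot be told apart here. The rows chrM:1104-3694 and chrM:5323-8066 together held 51.0% to 72.9% of the chrM values of a cell, with a median of 65.0%. The remaining rows of more than 3% on average were chrM:14131-15347 (10.3%), chrM:10019-11539 (6.14%), chrM:2176-3760 (4.73%), chrM:12626-14061 (3.35%) and chrM:3765-4944 (3.15%).

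All 14 rows had a positive difference in purified against glia-cultured cells (median 0.88), beside 1278 of 6302 symbols. All 14 had a negative one in OCM-treated against purified cells (median -0.68), beside 1543 of 5143 symbols, and chrM:15417-16192 was at only -0.016. Both comparisons use the same purified cells. Most of the 14 rows overlap another row and could share reads, so the common sign is not 14 separate observations. In the same comparisons the row chrM:1104-3694 differed by 0.21 and -0.96, and chrM:5323-8066 by 0.93 and -0.40. The row chrM:1104-3694 was at 88721, 194783, 97203, 43019 and 124074 in purified cells and at 51742, 90158, 33591, 33262 and 61769.5 in OCM-treated cells. The row chrM:5323-8066 was at 291247, 224842, 266292, 81407 and 143729 in purified and at 172989, 234989, 147766, 46982 and 182187 in treated cells. Groups overlapped for both rows. The ratio of the first to the second was 1.45, 1.40 and 1.29 in the glia-cultured GABAergic cells titled P. It was 0.630, 0.605 and 0.473 in those titled ech or S, and between 0.227 and 0.708 in OCM-treated cells, all titled S. In pyramidal cells the ratio was 0.275 and 1.07 in those titled S and 0.944, 0.630 and 0.313 in those titled P, and in purified cells it was 0.863 in the cell titled P and between 0.305 and 0.866 in those titled S. The letters were thus apart in glia-cultured GABAergic cells and overlapped in pyramidal and purified cells. Within cells titled S, the chrM share of purified cells exceeded the 1 glia-cultured cell by a log2 ratio of 1.75. For cells titled P the same log2 ratio was -0.26 with 1 purified cell, and that of chrM to nuclear values was -0.41.

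Other genes of mitochondrial energy supply were described by lists chosen with earlier results of these data known. In pyramidal against glia-cultured GABAergic cells, 9 of 11 tricarboxylic acid cycle genes and 7 of 9 genes of pyruvate entry were at least 2-fold lower (medians -3.46 and -3.77). Glycolysis genes had 7 of 14 lower and 1 higher (median -1.41). Beside the 64.2% of all symbols that were lower (median -2.05), the share of glycolysis genes was smaller. Cycs, which encodes cytochrome c, had means of 2865 in pyramidal and 7732 in GABAergic cells. Vdac1, an outer membrane channel, was above 0 in 1 of 5 and 6 of 6 cells, and Pdhx, a component of pyruvate dehydrogenase, in 0 of 5 and 6 of 6.

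In OCM-treated against purified cells, 7 of 8 genes of pyruvate entry and 5 of 11 of the tricarboxylic acid cycle were at least 2-fold higher (medians 3.08 and 0.90). Among all symbols 56.0% were higher, with a median of 1.40, and the share in the tricarboxylic acid cycle was below that. Glycolysis had 4 of 14 higher and 0 lower (median 0.55), with Pfkp, a phosphofructokinase, at means of 5720.0 and 1606. Fh, fumarate hydratase, was above 0 in 5 of 5 treated and 2 of 5 purified cells. Of the mitochondrial DNA genes only 3 of 10 were measured. Tfam, which packages and transcribes mitochondrial DNA, was above 0 in 1 of 5 treated and 4 of 5 purified cells, and in 3 of 6 glia-cultured cells. Ppargc1a, a coactivator of respiratory genes, was above 0 in 2 treated, 1 purified, 3 glia-cultured and 1 pyramidal cell. Mitochondrial ribosomal proteins had 41 of 63 higher and 10 lower (median 2.07), a share not far from that of all symbols, and cytosolic ribosomal proteins 20 of 69 higher and 4 lower (median 0.08). In purified against glia-cultured cells the medians were -2.49 for mitochondrial and 0.38 for cytosolic ribosomal proteins, beside -0.41 for the oxidative phosphorylation genes.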

How the data were processed

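Single neurons were aspirated through the patch electrode, copied to cDNA by SMART-Seq v4, and sequenced from Nextera XT libraries, per the labels' protocols. The submitters' processing notes list STAR 2.4.0, DESeq2 and rn6. Counter, annotation and strand are not given in the sources here, so overlapping and antisense genes are uncertain, as are rows labelled with a second gene (Atp5c1 with Taf3, Cox7c with LOC252890). The authors deposited a signal for each row, namely read counts divided by 1 factor per cell. Whole reads came back for 100% of values within 0.05. No count test was run, since each group is 1 sample and cells are not replicates. Of 34976 rows, 18376 have no symbol. Complex membership was assigned from general knowledge.

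Shares are percents of all values in a cell. Gene differences used a pseudocount of 1. Named members were, by rule, those most read per complex, up to 5 with the largest difference per direction and comparison, isoform pairs and all chrM rows. Members without overlap, Sdhb, Uqcrfs1, Atp5l and Ndufa1 were chosen after their values were seen. 1 member is counted in the totals and not reported here by name. The members and lists were chosen with earlier results of these data known. A rat gene table of assembly GRCr8 matched all 90 nuclear symbols, 16 of them by synonym, for promoters only. Scripts were tested on simulated data. Python 3.11.15, numpy 2.4.6, pandas 2.3.3 and scipy 1.17.1 were used.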

Additional observations from a re-analysis of the deposited data

Results flagged for a closer look

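Among 90 sets of values for a group, 5 held a cell far from the rest of its group by Dixon's test, where chance gives about 1 in 20. The ratio of chrM to nuclear values was 3.82 in glia-cultured GABAergic cell 3, against 1.45 in the next cell. Purified cell 4 had 62 nuclear members above 0, against 71 in the next. Glia-cultured GABAergic cell 4 was high in both Cox6a1 (15055, next 9327) and Cox6a2 (5786, next 1827). Sdha was at 11381 in glia-cultured GABAergic cell 2, against 4066 in the next.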

How the results depend on the processing

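For 16 results, 296 alternatives were computed, of which 172 left out 1 cell. In 274 the value stayed within the spread between cells, though some changed sign within it, 21 moved it by more, and 1 reversed a difference. A reversal was counted only where the main value was at least 1 in size. Sign changes of smaller main values are therefore among the 274 and the 21. For the members' median in pyramidal against GABAergic cells (-1.02), the values were -0.83 with a pseudocount of 10, -1.23 with one total per cell, -0.32 from ratios of group means and -0.61 from medians over cells. They were -0.83 without a filter, -0.85 without assembly factors, -1.19 after thinning, -0.79 in cells titled P, -0.28 in cells titled S, and -1.28 to -0.66 on leaving out 1 cell. In the same pair the chrM share (log2 ratio 0.82) was 2.53 in cells titled S, -0.33 in cells titled P and 0.07 without pyramidal cell 2, and the chrM to nuclear ratio (1.13) reversed to -0.026 in cells titled P. For purified against glia-cultured cells, cells titled P gave a median of 0.063 (from -0.41), a nuclear share of 0.25 (from -0.01) and a ratio of -0.41 (from 0.81), and the chrM share (0.54) was 1.75 in cells titled S and -0.26 in cells titled P. For OCM-treated against glia-cultured cells, the median (0.18) was 0.37 with one total, 0.36 after thinning and 0.037 to 0.23 on leaving out 1 cell, the chrM share (0.02) was 1.20 in cells titled S, and the sign of the chrM share changed on leaving out any of 6 cells. For OCM-treated against purified cells all 4 results kept their direction. The 27 members at least 2-fold higher there became 11 with ratios of group means, 15 with medians over cells and 18 without purified cell 4. The 42 lower in pyramidal cells became 22 and 23 with ratios and medians, and the 26 lower in purified cells 9 and 14. Scaling to one total moved the median of all symbols from -0.72 to -0.61 in OCM-treated against glia-cultured cells. Nuclear shares outside chrM and chrM rows without overlap were chosen after seeing the data. No paired analysis was possible because the labels give no replicate numbers that groups share. Depth limits zeros: a gene at 0 in 1 cell may have been present and not captured.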
